A study of Mus musculus with 5 samples.

Results

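The homeobox genes of the Emx, Barhl, Hmx and Vax families, 9 of 21938 protein-coding genes of the annotation, were examined for trimethylation of histone H3 lysine 27 (H3K27me3) in the mesenchyme of mouse molars. The 9 members were Emx1, Emx2, Barhl1, Barhl2, Hmx1, Hmx2, Hmx3, Vax1 and Vax2. They were chosen from the peak lists themselves: Emx2, Barhl2 and Hmx1 were picked because they lie in long runs of H3K27me3 peaks in both replicates, and the 6 relatives were taken as the contrast. For that reason every value below is a description, given beside the same value over all genes where that was computed, and no test was applied.

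The tissue came from wildtype C57BL/6 mice at postnatal day 3. Molars were dissected, the epithelium was taken off and the remaining mesenchyme was used for chromatin immunoprecipitation followed by sequencing (ChIP-seq), after enzymatic shearing of the chromatin. Of 5 libraries, 2 were immunoprecipitated with an H3K27me3 antibody, 2 were inputs without immunoprecipitation and 1 was made with nonspecific IgG. No mutant or treated sample was among them, and the labels do not say whether replicates came from separate animals or pools, so each SD is the spread between 2 libraries.

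The authors called broad peaks in 3 comparisons: H3K27me3 replicate 1 against its input (22757 peaks), the same H3K27me3 library against IgG (24881 peaks), and replicate 2 against its input (33379 peaks). The first and second lists share their H3K27me3 library and are not separate replicates, so means and SDs were taken over the lists called against input. Replicate 1 held 30369351 tags after removal of duplicates and replicate 2 held 49947919. Tags were 49 bp long in replicate 1 and 74 bp long in replicate 2, and the fragment lengths modelled by the peak caller were 46 bp and 71 bp. These modelled lengths are shorter than the tags, so they are not lengths of real fragments. Because molar mesenchyme is a mixture of cells, a mark in few cells and a weak mark in many cells cannot be told apart.

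H3K27me3 is written by Polycomb repressive complex 2, in which Ezh2 or Ezh1 is the methyltransferase, and in vertebrates it often covers CpG-rich promoters of developmental transcription factors in tissues where those factors are silent. The Emx, Barhl, Hmx and Vax genes encode homeodomain transcription factors related to the NK-like class, and each is best known from the nervous system, the eye, the ear or the urogenital tract. Long tracts of the mark over homeobox loci are a common feature of differentiated tissues.

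The bases under peaks of both replicates are the narrowest view these lists give of each gene. Such bases can coincide by position alone, because peaks near the members were dense and rested on few tags. Whether they are repeated positions of the mark was not tested. One example or a few are printed per gene, on the strand of the gene and 5′ to 3′, from the GRCm38 reference of RefSeq. Capitals show the bases inside a peak of replicate 1 against input and also inside a peak of replicate 2, and lower case shows bases inside a peak of a single replicate. At the downstream stretches of Emx2, Hmx1 and Vax1, the replicate 1 peak was not overlapped by a peak of the same library called against IgG. Stretches that lie in coding or untranslated exons of the member were left out. Hmx2 and Hmx3 had no such bases within 20 kb.

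At Emx2 the printed stretches were chr19:59448716-59448964 (plus strand, upstream), chr19:59459781-59459979 (plus strand, intron) and chr19:59470905-59471152 (plus strand, downstream).
Emx2 upstream: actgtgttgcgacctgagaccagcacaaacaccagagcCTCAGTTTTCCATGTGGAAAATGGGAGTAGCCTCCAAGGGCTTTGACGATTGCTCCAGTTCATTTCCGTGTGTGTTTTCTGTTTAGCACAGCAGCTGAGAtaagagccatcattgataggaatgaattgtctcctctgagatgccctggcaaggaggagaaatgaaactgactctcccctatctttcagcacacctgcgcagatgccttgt
Emx2 intron: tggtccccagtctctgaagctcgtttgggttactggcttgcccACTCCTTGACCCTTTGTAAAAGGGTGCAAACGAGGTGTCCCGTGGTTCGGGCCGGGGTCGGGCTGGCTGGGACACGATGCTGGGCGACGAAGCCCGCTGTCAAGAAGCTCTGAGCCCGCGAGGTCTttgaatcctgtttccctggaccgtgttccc
Emx2 downstream: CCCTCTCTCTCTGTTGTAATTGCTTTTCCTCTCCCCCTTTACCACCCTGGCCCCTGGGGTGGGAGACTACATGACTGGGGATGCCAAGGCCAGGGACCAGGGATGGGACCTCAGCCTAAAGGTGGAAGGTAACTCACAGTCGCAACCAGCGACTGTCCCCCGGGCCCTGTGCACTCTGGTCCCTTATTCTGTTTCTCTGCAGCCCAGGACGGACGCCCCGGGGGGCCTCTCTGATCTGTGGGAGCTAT

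At Barhl2 the only bases under peaks of both replicates were chr5:106452158-106452244 (minus strand, downstream). At Hmx1 stretches on either side of the gene were chr5:35386609-35386801 (plus strand, upstream) and chr5:35400628-35400832 (plus strand, downstream).
Barhl2 downstream: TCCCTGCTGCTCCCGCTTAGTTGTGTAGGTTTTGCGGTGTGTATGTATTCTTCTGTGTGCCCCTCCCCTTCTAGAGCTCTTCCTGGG
Hmx1 upstream: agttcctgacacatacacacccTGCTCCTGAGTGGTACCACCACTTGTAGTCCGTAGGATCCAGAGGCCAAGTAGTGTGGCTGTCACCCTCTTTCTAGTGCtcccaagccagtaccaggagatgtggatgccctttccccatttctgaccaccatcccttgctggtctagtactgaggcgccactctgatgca
Hmx1 downstream: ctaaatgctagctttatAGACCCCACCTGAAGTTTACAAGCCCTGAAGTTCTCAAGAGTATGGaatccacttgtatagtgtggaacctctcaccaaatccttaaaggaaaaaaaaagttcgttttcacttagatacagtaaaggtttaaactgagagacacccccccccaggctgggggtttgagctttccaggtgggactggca

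Among the relatives, the shared bases before the 5′ end of Emx1 were chr6:85187374-85187437 (plus strand), the stretch before the start site of Barhl1 was chr2:28916669-28916918 (minus strand), and those of Vax1 and Vax2 were chr19:59162335-59162484 (minus strand, downstream) and chr6:83704669-83704928 (plus strand, upstream).
Emx1 upstream: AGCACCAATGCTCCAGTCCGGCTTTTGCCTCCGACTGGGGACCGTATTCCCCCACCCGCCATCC
Barhl1 upstream: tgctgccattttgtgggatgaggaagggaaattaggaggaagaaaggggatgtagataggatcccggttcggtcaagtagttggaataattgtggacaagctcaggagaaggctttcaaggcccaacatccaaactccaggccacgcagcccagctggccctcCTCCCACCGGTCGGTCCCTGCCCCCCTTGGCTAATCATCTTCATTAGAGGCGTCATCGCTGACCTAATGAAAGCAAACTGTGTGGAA
Vax1 downstream: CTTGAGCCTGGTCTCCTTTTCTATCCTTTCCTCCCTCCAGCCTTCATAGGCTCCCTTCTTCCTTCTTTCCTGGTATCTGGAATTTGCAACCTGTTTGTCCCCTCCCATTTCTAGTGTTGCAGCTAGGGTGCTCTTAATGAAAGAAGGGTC
Vax2 upstream: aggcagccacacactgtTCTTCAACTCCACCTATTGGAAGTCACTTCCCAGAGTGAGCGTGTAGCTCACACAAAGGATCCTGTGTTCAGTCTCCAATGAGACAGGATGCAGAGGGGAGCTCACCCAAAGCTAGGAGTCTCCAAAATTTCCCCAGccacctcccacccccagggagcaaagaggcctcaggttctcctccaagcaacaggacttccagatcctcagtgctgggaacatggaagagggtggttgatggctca

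The printed stretches differed in length and in CpG content. The Emx2 intron stretch held 13 CpG in 199 bases, of which 11 lay in the bases shared by the replicates. The other Emx2 stretches held 4 in 249 bases (upstream) and 6 in 248 bases (downstream). The Barhl2 stretch held 2 in 87 bases and the Vax1 stretch 0 in 150 bases. At Hmx1 the upstream stretch held 2 in 193 bases, and the downstream stretch 1 in 205 bases, outside the shared bases. The Vax2 stretch held 1 in 260 bases. The shared bases before the 5′ end of Emx1 held 4 CpG in 64 bases, and the Barhl1 stretch held 7 in 250 bases.

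All 9 members had at least 1 peak in the gene body or within 5 kb of it in both replicates, compared with 15.7% of protein-coding genes. Each list alone also gave 9 of 9, beside 25.0% of genes for replicate 1 with input as control, 25.9% with IgG as control and 35.7% for replicate 2. Without the flanks the number fell to 7 of 9, beside 12.3% of genes, because the bodies of Hmx3 and Vax1 held 0 peaks of replicate 1 against input. In each list the share of the locus under peaks, taken over the body and 5 kb of flank at either end, was higher at each member than at 98.4% or more of protein-coding genes.

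**Figure D1:**
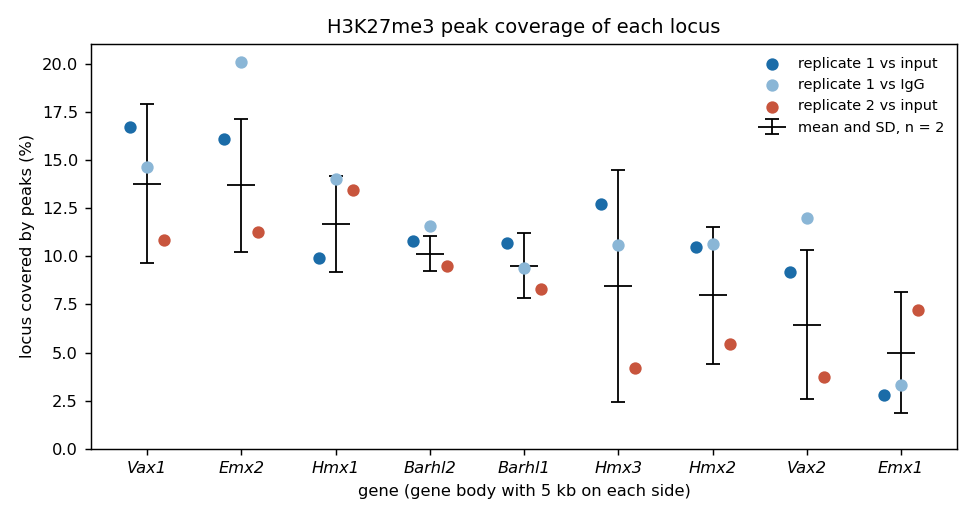
Share of each locus (gene with its 5 kb flanks, in %) covered by H3K27me3 peaks, with genes on the x axis in order of the mean over the replicates called against input. Points are the 3 peak lists and bars are the mean and SD of n = 2; Vax1 and Emx2 lie highest at 13.8% and 13.7%, Emx1 lies lowest at 4.997%, and the error bars of all neighbours overlap.

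Emx2 (ENSMUSG00000043969.4, chr19:59458372-59465357, plus strand), which patterns the cerebral cortex and is needed for the urogenital tract, had 13 peaks within 5 kb in replicate 1 called against input, 13 in the IgG-called list and 8 in replicate 2. The locus was covered over 16.1%, 20.1% and 11.3%, a mean over replicates of 13.7% ± 3.45 (SD, n = 2). The peaks were spread over its upstream side, exons, introns and downstream side in both replicates. The RefSeq promoter of Emx2 (250 bases before the start and 50 after it) was covered over 158 bases in replicate 1 against input and 232 bases in replicate 2.

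Emx1 (ENSMUSG00000033726.8, chr6:85187438-85204462, plus strand), a regulator of cortical progenitors and the closest relative of Emx2, had 7, 8 and 6 peaks in the same order of lists. Peaks covered 2.79% of it in replicate 1 against input, 3.32% in the IgG-called list and 7.21% in replicate 2. Emx1 had the lowest share of the 9 in replicate 1, while in replicate 2 its value lay above those of Hmx2, Hmx3 and Vax2. A single peak overlapped between replicates, and it lay at the annotated 5′ end.

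Barhl2 (ENSMUSG00000034384.11, chr5:106452523-106458166, minus strand), known from retinal amacrine cells and spinal interneurons, had 7, 9 and 8 peaks within 5 kb. Its covered share was 10.8%, 11.6% and 9.52%, a mean of 10.1% ± 0.890 (SD, n = 2), which was the smallest spread of the 9 loci. Few of these peaks lay in the gene. The body held 2 peaks in replicate 1 against input and 1 in replicate 2, and the peak closest to the 5′ end was 882 bp away in replicate 1 and 1058 bp away in replicate 2.

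Barhl1 (ENSMUSG00000026805.14, chr2:28907679-28916668, minus strand), which maintains inner ear hair cells and cerebellar granule neurons, had 9, 11 and 4 peaks. Its covered share was 10.7%, 9.37% and 8.33%, with a mean of 9.52% ± 1.69 (SD, n = 2). In contrast to Barhl2, a peak lay on the annotated 5′ end in all 3 lists and covered 262, 259 and 98 bases of the RefSeq promoter there. The other RefSeq promoter of Barhl1, chr2:28912446-28912745, had 0 covered bases in all 3 lists. At 5 kb the means of Barhl1 and Barhl2 differed by 0.624 percentage points, less than the larger SD.

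Hmx1 (ENSMUSG00000067438.5, chr5:35389108-35399730, plus strand), needed for the outer ear and cranial sensory neurons, had 12, 15 and 10 peaks. Peaks took up 9.92% of the locus with the input control and 14.04% with IgG in replicate 1, and 13.5% in replicate 2. Hmx1 and Emx1 were the only members whose share was higher in replicate 2 than in replicate 1 against input at 5 kb. Its RefSeq promoter was covered over 258 bases in replicate 2 and 0 bases in both lists of replicate 1.

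Hmx2 (ENSMUSG00000050100.14, chr7:131548773-131558014, plus strand) and Hmx3 (ENSMUSG00000040148.5, chr7:131542867-131544925, plus strand) act together in the vestibular inner ear and the hypothalamus. They are 3.85 kb apart, so their windows share peaks and are not independent. The annotation also gives Fgfr2 a span that runs across both genes. Hmx2 had 11, 12 and 4 peaks within 5 kb, covering 10.5%, 10.6% and 5.46%, and Hmx3 had 9, 7 and 2 peaks, covering 12.7%, 10.6% and 4.20%. The share was thus higher in replicate 1 against input than in replicate 2 by 1.92-fold at Hmx2 and by 3.04-fold at Hmx3. Replicate 1 peaks clustered between the genes and over the 5′ part of Hmx2, whereas the body of Hmx3 held 0 peaks in both lists of replicate 1 and 1 peak in replicate 2.

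Vax1 (ENSMUSG00000006270.7, chr19:59166187-59170056, minus strand), which acts in the optic stalk and ventral forebrain, had 8, 10 and 4 peaks within 5 kb and the highest mean share of the 9, at 13.8% ± 4.14 (SD, n = 2). The values were 16.7%, 14.6% and 10.9%. The replicates differed in the gene body, of which 0% lay under replicate 1 peaks called against input, 2.997% under those called against IgG and 26.8% under replicate 2 peaks, and the replicate 1 peaks called against input lay in the flanks.

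Vax2 (ENSMUSG00000034777.2, chr6:83711264-83738313, plus strand), which specifies the ventral retina, is the longest of the 9 genes at 27.1 kb. It had 13, 17 and 5 peaks within 5 kb, which covered 9.18%, 11.99% and 3.72% of the locus. Most of its replicate 2 peaks lay farther upstream: within 20 kb there were 23, 26 and 14 peaks, of which 11 of 14 in replicate 2 were upstream of the gene.

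In order of the mean share at 5 kb, the loci were Vax1 (13.8%), Emx2 (13.7%), Hmx1 (11.7%), Barhl2 (10.1%), Barhl1 (9.52%), Hmx3 (8.47%), Hmx2 (7.98%), Vax2 (6.45%) and Emx1 (4.997%). No neighbours in this order differed by more than the larger of their SDs. Of the 36 pairs of members, 14 did, among them Emx2 over Emx1, and Hmx1 over Hmx2, while Barhl2 and Barhl1, Hmx1 and Hmx3, and Hmx2 and Hmx3 did not. At 20 kb the order was Emx2, Barhl2, Vax2, Vax1, Hmx1, Hmx3, Barhl1, Hmx2 and Emx1, from 9.94% ± 2.59 (SD, n = 2) to 2.50% ± 1.29 (SD, n = 2), again with no neighbours beyond their SDs. The genes in long domains were therefore not set apart from all relatives by how densely the 5 kb around them was covered.

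**Figure D2:**
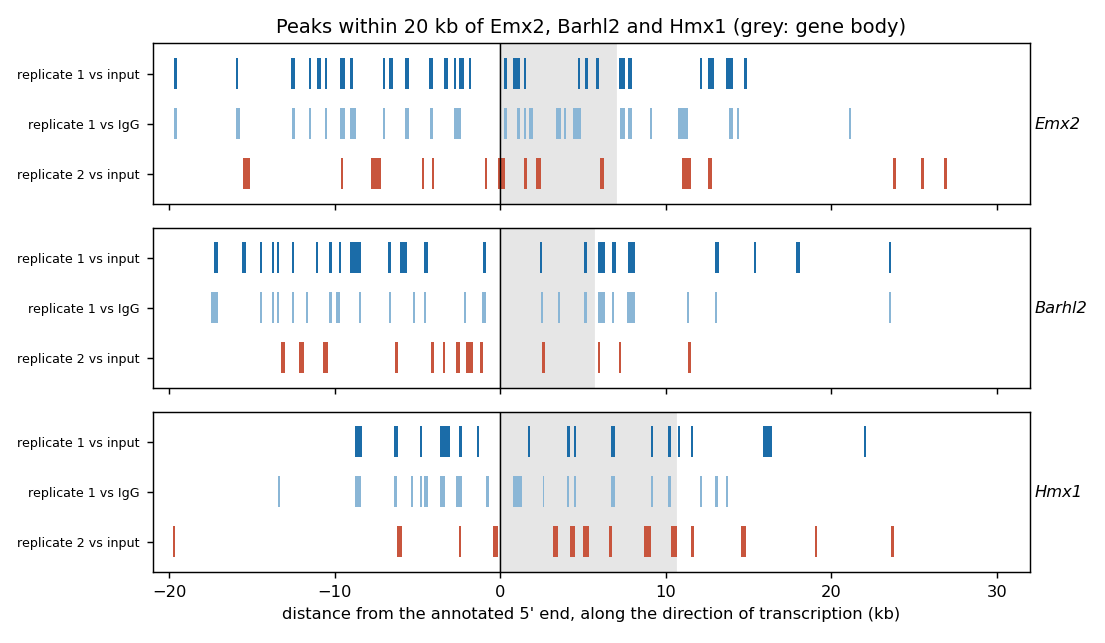
Peaks within 20 kb of Emx2, Barhl2 and Hmx1 by distance from the annotated 5′ end in kb, along the direction of transcription, with a row of bars for each peak list and the gene body in grey. Peaks of both replicates run along each locus on both sides of the gene, mostly at different positions, and the first 2 kb of Barhl2 hold no peak in the 3 lists.

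What set Emx2, Barhl2 and Hmx1 apart by the rule was the length of the run. Peaks 5 kb or less apart were joined into domains, and a gene was counted when its body was touched by a domain of 20 kb or more. Such a domain touched 5 of 9 members in replicate 1 against input (Emx2, Barhl2, Hmx1, Vax1 and Vax2; 0.401% of all genes), 4 of 9 against IgG (0.574%) and 3 of 9 in replicate 2 (0.150%). The 3 genes with a domain in both replicates stood beside 0.114% of all genes, or 25 genes. This count was used to choose the members, and nothing is read from it.

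The Emx2 domain spanned 38.5 kb in the input-called and 39.4 kb in the IgG-called list of replicate 1, and 22.4 kb in replicate 2. It reached 23.6 kb upstream and 7.90 kb downstream of the gene in replicate 1, compared with 9.62 kb and 5.80 kb in replicate 2. Its upstream arm ran through Emx2os, the antisense transcript that starts next to Emx2. The replicate 2 domain lay wholly within that of replicate 1.

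The Barhl2 domain was 35.4 kb, 30.5 kb and 24.7 kb in the same order, and here too the replicate 2 domain lay inside the replicate 1 domain. It extended on both sides, by 17.3 kb upstream and 12.4 kb downstream in replicate 1 and by 13.2 kb and 5.85 kb in replicate 2, and took in the noncoding gene Gm26872 upstream. The Hmx1 domain was 25.2 kb, 27.2 kb and 30.0 kb, and 22.7 kb were common to both replicates. It was shifted between them, reaching 8.77 kb upstream and 5.79 kb downstream in replicate 1 and 6.24 kb and 13.1 kb in replicate 2, and touched the noncoding gene E130018O15Rik in both.

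**Figure D3:**
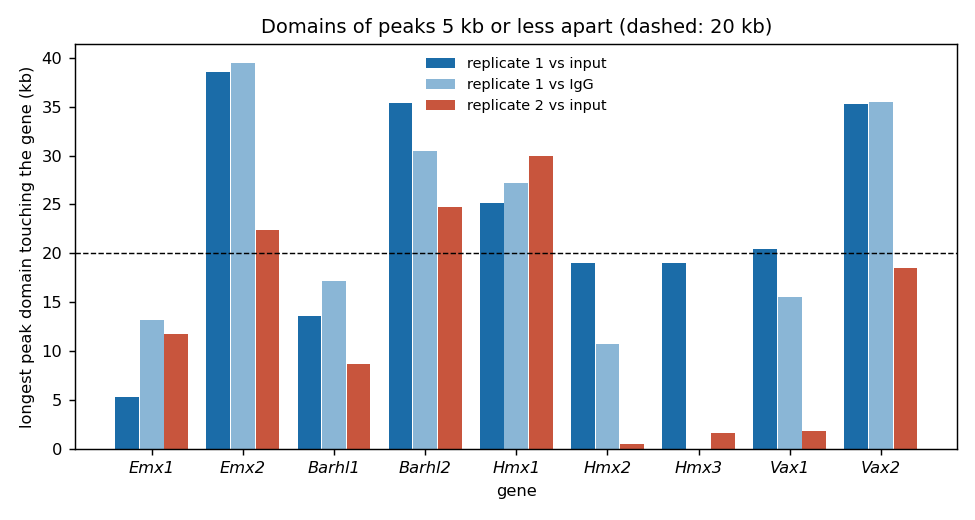
Length in kb of the longest domain touching each gene, with genes on the x axis, a bar for each peak list and a dashed line at the 20 kb threshold. Emx2, Barhl2 and Hmx1 pass the line in all 3 lists, Vax2 stops at 18.5 kb in replicate 2, and the bars of Hmx2, Hmx3 and Vax1 in replicate 2 are under 2 kb.

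The threshold separated genes with close values. Just inside it were Emx2 with 22.4 kb and Barhl2 with 24.7 kb in replicate 2, and just outside it was Vax2, with 35.2 kb and 35.5 kb in the lists of replicate 1 and 18.5 kb in replicate 2. When peaks up to 10 kb apart were joined, Vax2 lay in a domain of 20 kb or more in both replicates, as did Emx2, Barhl2 and Hmx1. Its domain ran mainly upstream, by 19.3 kb in replicate 1 and 16.9 kb in replicate 2, through the antisense gene Vax2os.

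At the other relatives the domains were short or differed between replicates. Vax1 lay in domains of 20.4 kb and 15.5 kb in the lists of replicate 1 and of 1.84 kb in replicate 2. Hmx2 and Hmx3 shared a 19.0 kb domain in replicate 1 against input. Against IgG the domain at Hmx2 was 10.8 kb and Hmx3 had none (0 kb), and in replicate 2 the longest domains were 0.505 kb at Hmx2 and 1.60 kb at Hmx3. Barhl1 lay in 13.5 kb, 17.1 kb and 8.63 kb, and Emx1 in 5.29 kb, 13.2 kb and 11.7 kb.

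Domains were mostly gaps. Peaks covered 14.8% of the Emx2 domain in replicate 1 against input with 30 peaks and 12.6% in replicate 2 with 11 peaks. At Barhl2 the shares were 13.2% with 22 peaks and 10.5% with 13 peaks, and at Hmx1 12.6% with 15 peaks and 11.0% with 13 peaks. With peaks joined only up to 1 kb, or with the replicate 2 list reduced to the strongest peaks until it was as long as that of replicate 1, 0 of 9 members lay in a domain of 20 kb in both replicates.

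**Figure D4:**
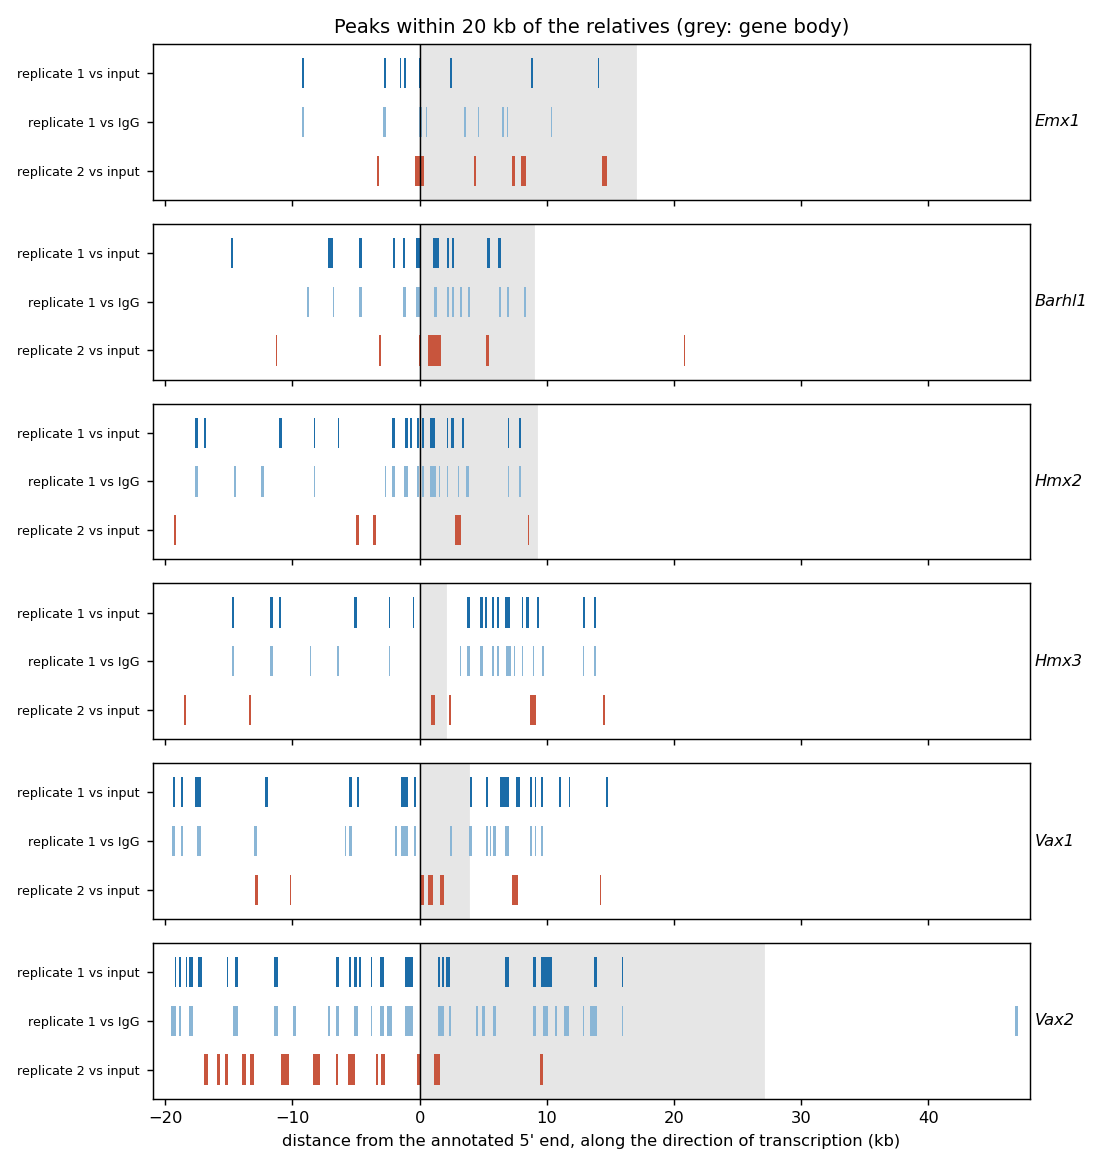
Peaks within 20 kb of the 6 relatives by distance from the annotated 5′ end in kb, along the direction of transcription, with a row of bars for each peak list and the gene body in grey. Replicate 2 has 5 to 7 peaks around each of Emx1, Barhl1, Hmx2, Hmx3 and Vax1 and 14 around Vax2, mostly upstream, and the body of Hmx3 is empty in replicate 1.

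Peaks of the replicates mostly did not coincide base for base. Within 20 kb of the members, 25 of 144 distinct replicate 1 peaks (17.4%) shared at least 1 base with a replicate 2 peak, and 24 of 81 replicate 2 peaks (29.6%) shared 1 with replicate 1. Over the whole lists these shares were 2.85% and 1.90%. A replicate 2 peak lay within 1 kb of 85 of the 144 (59.0%), compared with 12.7% over the whole list. The members lay among the most covered genes, so peaks can meet more often there by position alone. Peaks placed without regard to each other would share the product of the covered shares. Within 20 kb the shared part lay below that product at Barhl2 (0.191% beside 0.587%), Vax1, Hmx2 and Hmx3. It lay above it at Emx1, Emx2 (1.34% beside 0.955%), Barhl1, Hmx1 and Vax2. No test was applied.

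Overlap did not follow the division into long domains and relatives. Under the rule of 1 shared base, Hmx1 had the most, with 7 of 16 replicate 1 peaks overlapped, and Vax2 had 7 of 23. At Emx2 the number was 5 of 28 and at Barhl1 3 of 11. Barhl2 had 1 of 23 although its domains nested, Emx1 had 1 of 8 and Vax1 1 of 18, and Hmx2 and Hmx3 had 0 of 16 and 0 of 17. Some Hmx1 overlaps were edge contacts, of as few as 4 and 14 bases. The order of the genes was not worked out with a larger overlap required. With the 1 kb tolerance, Vax2 (73.9%), Hmx1 (68.8%), Emx2 (67.9%), Barhl2 (65.2%), Barhl1 (63.6%) and Emx1 (62.5%) lay close together, and Vax1 (38.9%), Hmx2 (25.0%) and Hmx3 (23.5%) lay lower. For comparison, 68.1% of the input-called peaks near the members were overlapped by an IgG-called peak of the same H3K27me3 library, and 51.0% over the whole list.

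Around the annotated 5′ ends, a peak lay within 1 kb at 8 of 9 members in replicate 1 against input (3.87% of all genes), 8 of 9 against IgG (4.52%), 7 of 9 in replicate 2 (4.16%) and 6 of 9 in both replicates against input (1.04%). The exceptions in replicate 1 were Hmx1 against input, whose closest peak was 1296 bp away, and Hmx3 against IgG at 2306 bp. Those in replicate 2 were Barhl2 at 1058 bp and Hmx2 at 2748 bp, the latter from the outermost of 2 annotated start sites. Of the genes in long domains, Emx2 had a peak within 1 kb of its 5′ end in both replicates against input, and Hmx1 did so with the IgG-called list of replicate 1, at 702 bp and at 141 bp in replicate 2.

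CpG content differed between the members' 5′ ends. Within 500 bases on either side of the annotated 5′ end, Hmx1 held 11.8 CpG per 100 bases, Barhl2 11.6 and Hmx3 10.5, each at or above the 94.5th percentile of protein-coding genes, whose median was 4.10. Emx2 held 6.89, Emx1 6.49, Vax1 8.09, Vax2 6.29 and Barhl1 4.20, and Hmx2 held 1.10. Each value is for the outermost annotated start alone, and some members have more, such as Hmx2 with 2 and Barhl1 with 5. Barhl2, Hmx1 and Hmx3, with the most CpG-rich 5′ ends, had 0 bases of their RefSeq promoters covered in replicate 1, and only that of Hmx1 was covered in replicate 2.

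Over the whole lists, replicate 1 peaks held 1.354 CpG per 100 bases with the input control and 1.44 with IgG, and replicate 2 peaks held 1.13, beside 0.826 across the genome. Near the members, replicate 2 peaks held more CpG than the uncovered rest of the same 20 kb window at 9 of 9 members, by 1.09- to 2.61-fold. In replicate 1 this was so at 5 of 9 members against input and at 5 of 9 against IgG. The same comparison was not made around other genes. The windows of Hmx2 and Hmx3 share peaks, so the 9 are not separate loci. The widest difference was at Hmx1, where peaks held 4.72 CpG per 100 bases in replicate 2 and 1.30 in replicate 1 against input, beside 1.81 and 2.05 outside the peaks. At Vax1 the values inside peaks were 3.53 and 1.52. Emx2 was alike in both, with 2.83 and 2.95, and Barhl2 held 2.85 and 2.51. The replicates also differed in tag length, with the modelled length that went with it, and in depth. The part of these in the CpG difference was not tested.

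**Figure D5:**
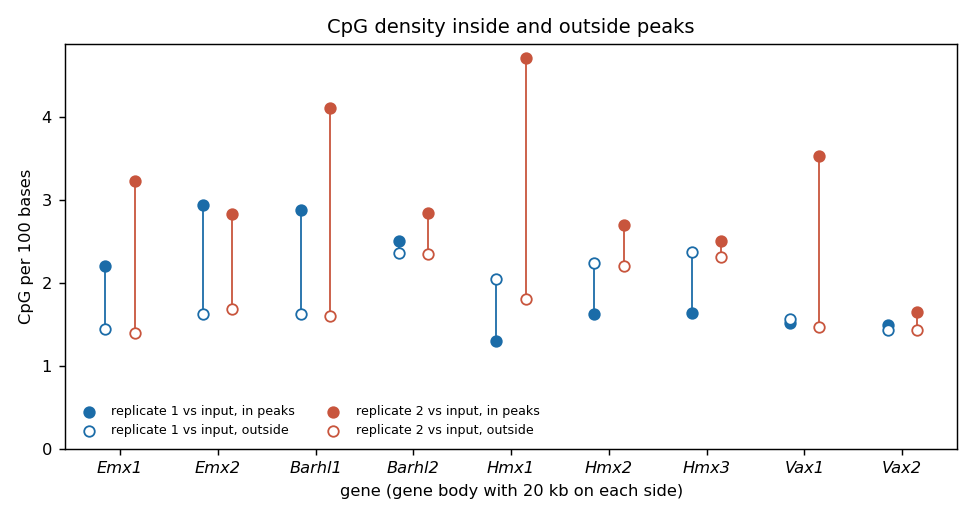
CpG per 100 bases inside peaks (filled) and in the rest of the window (open) for each gene with its 20 kb flanks, with lines joining the values of a replicate. In replicate 2 the filled point lies above the open one at all 9 genes, and in replicate 1 it lies below at Hmx1, Hmx2, Hmx3 and Vax1.

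Single peaks were weak throughout the lists, near the members and elsewhere. Near the members the median fold enrichment over background was 2.76 (input) and 2.79 (IgG) in replicate 1 and 2.50 in replicate 2, compared with 2.63, 2.66 and 2.45 over the whole lists. A peak rested on a median of 4.44 stacked tags in replicate 1 against input and 6.32 in replicate 2, with lowest values of 4 and 6. The strongest was a Barhl1 peak of replicate 1 against input with an enrichment of 3.98, and in replicate 2 it was a Hmx1 peak with 3.09. An enrichment of 3 or more was reached by 25 of 144 peaks (17.4%, beside 8.96% of the whole list) in replicate 1 against input, 28 of 150 (18.7%, beside 10.7%) against IgG and 1 of 81 (1.23%, beside 1.56%) in replicate 2. With this limit 0 of 9 members had a peak within 5 kb in both replicates. A q-value of 0.05 or lower was reached by 0 peaks of either replicate 1 list and by 4 peaks of replicate 2 over the genome, none of them near a member. At that limit no single peak at these loci, and almost none elsewhere, stood out from background.

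The nearest protein-coding genes on either side that did not overlap a member were not reached by the domains of the members, with the exception of Hmx2 and Hmx3, which were reached by the same domain in replicate 1 against input. The neighbours of Emx2, Barhl2 and Hmx1 are 102 kb or more away, farther than any of the domains extended. Cfap77, a cilia and flagella gene 10.3 kb upstream of Barhl1, had the most peaks of these neighbours, with 22, 25 and 5 within 5 kb in the order of lists above, which covered 2.52%, 2.91% and 0.738% of its longer locus. Shtn1, downstream of Vax1, had 8, 10 and 5 peaks and Adra2c, an adrenergic receptor gene upstream of Hmx1, had 3, 5 and 1. Spr and Sfxn5 beside Emx1, Rab11fip2 beside Emx2, Ddx31 beside Barhl1, Cpz beside Hmx1, Bub3 beside Hmx2, Kcnk18 beside Vax1 and Atp6v1b1 beside Vax2 had between 0 and 5 peaks in each list, and the windows of Sfxn5, Ddx31, Bub3 and Atp6v1b1 overlap those of the members. The neighbours of Barhl2 are distant and were nearly empty. Zfp326, 537 kb downstream, had 1 peak, in the IgG-called list, and Gm17304, 151 kb upstream, had 0.

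Other homeobox genes of the NK-like class gave a wider frame for the members. The set is not the whole class, since it holds no Nkx or Dlx gene. Of 18 such genes, 14 had a peak within 5 kb in both replicates, beside 15.7% of all genes. A domain of 20 kb in both replicates touched 0 of them, beside 0.114% of all genes, a trait by which members were chosen. In replicate 1 such a domain touched En1 and En2 in both lists, and Tlx1 and Lbx1 in the IgG-called list. The median share of the 18 genes, as the mean over replicates, was 5.99%, compared with 9.52% for the members and 0% for all protein-coding genes. The 14 were En1, En2, Hlx, Tlx1, Tlx2, Tlx3, Dbx1, Dbx2, Msx3, Barx1, Barx2, Bsx, Hhex and Lbx1. En2, which patterns the midbrain and cerebellum, reached 12.2% ± 1.95 (SD, n = 2), Tlx1, needed for the spleen, 11.4% ± 3.79 (SD, n = 2), and Lbx1, a regulator of migrating muscle precursors, 11.1% ± 0.991 (SD, n = 2), all within the range of the members.

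Several genes of this set lay lower, among them some known from dental mesenchyme. Msx2 had 0 peaks in all 3 lists, Msx1 had 0, 0 and 1, and Barx1, a marker of molar mesenchyme, had 1, 1 and 3, covering 2.26% ± 2.104 (SD, n = 2). Noto (0.253%), Barx2 (0.898%), Dbx2 (0.986%) and Lbx2 (1.45%), which were not on the list of dental markers, had lower means than Barx1. Of 9 dental mesenchyme markers, which include Msx1 and Barx1, 5 had a peak in both replicates, beside 15.7% of protein-coding genes. The median share of these markers was 0.479%, above the 0% over all genes. Their highest value was 2.26%, below the lowest mean of a member. Of 6 dental epithelium markers 2 had a peak in both, beside the same 15.7%, and Krt5 and Krt14 had 0 in all lists. Peak lists hold no expression, so these counts are no check of which cells the tissue contained.

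By the covered share at 5 kb in the 3 lists, the genes most like Emx2 were Hoxb9, Hoxa13 and Hoxa3, at Euclidean distances of 1.78, 2.97 and 3.41 percentage points. Those most like Barhl2 were Pdx1 (1.21), Cdkn2a (1.34) and Lhx5 (1.52). The genes most like Hmx1 were Tlx1 (1.45), Sox1 (1.80) and Hoxd11 (2.06), with Tlx1 covered over 8.71% in replicate 1 against input and 14.1% in replicate 2.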

How the data were processed

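H3K27me3 ChIP-seq libraries of molar mesenchyme at postnatal day 3 were aligned by the authors to GRCm38 with BWA, handled with SAMtools and called with MACS 2.1.1.20160309 in broad mode at a p-value of 0.005. The headers show that duplicates beyond 1 tag at a position were dropped and the larger library was scaled down. The deposited pileup (a signal) is the mean over the peak, the deposited fold enrichment is a ratio with a pseudocount of 1, and the deposited p- and q-values are −log10.

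Positions were compared with protein-coding genes of GENCODE M21 (same build) in Python 3.11.15, pandas 2.3.3 and NumPy 2.4.6, after the interval code was tested on simulated data. Stacked tags are the pileup divided by the scaling. Loci were gene bodies with 5 kb or 20 kb on each side, domains were peaks 5 kb or less apart, and overlap meant 1 shared base. A covered share is the percent of bases under peaks. Sequences came from the RefSeq genome; RefSeq promoters matched 8 of 9 members (10 promoters).

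All members were named, NK-like relatives where both replicates had a peak within 5 kb, neighbours where they had a peak, and the 3 genes closest in covered share. Some low relatives and neighbours were added after their values were seen. The members and lists were chosen with earlier results of these data known. Alternatives covered flanks, control, fold enrichment, q-value, list length, merging, domain length, overlap and single replicates. Intervals of counting error were not computed, since peak lists hold no counts over unmarked bases.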

Additional observations from a re-analysis of the deposited data

How the results depend on the processing

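The count of members with a peak within 5 kb in both replicates (9 of 9) fell to 7 with no flank and to 0 at a fold enrichment of 3 or higher, and was 9 with 20 kb flanks, the IgG-called list, the shortened replicate 2 list and without either replicate (range 9 to 9). The 3 members in a domain of 20 kb in both replicates became 0 at a fold enrichment of 3 or higher, 0 with the replicate 2 list shortened to as many peaks as replicate 1 by lowest p-value and 0 with peaks joined only up to 1 kb. They became 4 with joining up to 10 kb or with domains of 10 kb, Vax2 being the gene added, and 3 to 5 with single replicates, where Vax1 and Vax2 were added in replicate 1. The 25 overlapped replicate 1 peaks became 24 with the IgG-called list, 23 with the shortened list, 19 when 50% of the shorter peak had to overlap, 85 with a tolerance of 1 kb and 0 at a fold enrichment of 3 or higher, where 25 replicate 1 peaks near the members were left. With a q-value limit of 0.05, replicate 1 had 0 peaks and no value could be had. Covered shares moved by less than their SD at 9 of 9 loci with the IgG-called list and the shortened list, and by more at 2 loci with no flank, at 6 with 20 kb flanks and at 8 at a fold enrichment of 3 or higher. In single replicates the shares ran from 3.72% to 13.5% (replicate 2) and from 2.79% to 16.7% (replicate 1). With n = 2 each lies within 1 SD of the mean by construction. No result comes from a test, and differences between loci were not paired by library. The SDs of covered shares therefore include any difference between libraries that the loci share. Peaks rested on as few as 4 tags in replicate 1, and the effect of depth was not tested.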
